A study of Mus musculus with 2 samples.

Results

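Cxcl9-high macrophages are cells of the tumour that carry complement C1q RNA, as tissue macrophages do, together with much RNA of the chemokine Cxcl9 (ENSMUSG00000029417, GRCm38 chromosome 5, 92321347 to 92328079, minus strand). Each kept cell had at least 300 genes, at least 500 unique molecular identifiers (UMIs, which count captured RNA molecules) and at most 20% mitochondrial UMIs. A kept cell was a member when C1qa, C1qb and C1qc together made up at least 0.2% of its UMIs and Cxcl9 at least 0.1% and at least 5 UMIs. Cells were left out where the interferon-response genes Isg15, Ifit1, Ifit2, Ifit3 and Rsad2 together, or the haem oxygenase gene Hmox1, reached 0.2%, where Retnla reached 4 UMIs, where Ccl8 reached 0.1% beside at least 2 UMIs of Folr2, or where any Cd3d, Cd3e or Cd3g was found. Of 20602 kept cells 1310 met the rule, 653 of 8985 in the library titled Control and 657 of 11617 in the library titled Blood. Since measured Cxcl9 chose the cells, every comparison of their genes with those of other macrophages is a description and no test.

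The tumours were fibrosarcomas, connective tissue tumours of syngeneic cells growing under the skin of wild-type C57BL/6 mice. Mice received either autologous erythrocytes, that is red blood cells of their own, in saline or saline alone, and 1 library of each kind was made by droplet-based 3' single-cell RNA sequencing. Titles and treatment labels go against one another: Erythrocyte injected is the label of the library titled Control, and PBS injected that of the library titled Blood. For this reason each library is named by its title, and which one received erythrocytes cannot be told. There was 1 library in each group, so no value was tested and none has a replicate check. How many mice each library pooled is not known from these sources. All intervals are exact 95% intervals that cover counting error only.

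CXCL9 is a secreted chemokine that draws activated T cells and NK cells bearing the receptor CXCR3. Its gene is a classical target of interferon gamma, which induces the transcription factor IRF1 and also raises guanylate-binding proteins (GBPs), immunity-related GTPases and the antigen presentation machinery. In tumours macrophages and dendritic cells are its known sources, and a macrophage state marked by CXCL9 is commonly set against one of tissue repair and alternative activation.

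The libraries were of like depth for these cells. The Cxcl9-high cells summed to 10372125 UMIs in the library titled Control and 10470764 in the library titled Blood, with a median of 14340 and 14731 UMIs, 3553 and 3590 genes and 3.803% and 3.58% mitochondrial UMIs per cell. Scrublet, a doublet caller, marked 1 and 5 of them; among kept cells it marked 1.80% and 2.38% where 7.58% and 9.65% were expected, and unmarked doublets may be present. The libraries shared 349 barcodes, of which 324 held at least 10 times as many UMIs in one library as in the other. Of the Cxcl9-high cells 6 and 4 had any of the 349 shared barcodes, and 1 barcode was Cxcl9-high in both libraries. Without any shared barcode 647 and 653 cells and 12.9% and 12.7% of C1q cells were left.

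The label was checked against markers. All 12 macrophage markers stood at 10 or more in scaled counts (CPM, the gene's UMIs scaled to 1000000 UMIs of the set) in both libraries. The receptor for the macrophage growth factor, Csf1r, stood at 512 and 530 CPM, and Adgre1, which encodes F4/80, at 199 and 202 CPM. Other C1q cells held more of both, Csf1r at 560 and 570 CPM and Adgre1 at 258 and 258 CPM. The macrophage markers summed to 25361 and 24002 CPM in members against 27534 and 25897 CPM in other C1q cells. Of these markers Maf was past 1.5-fold lower in members in both libraries. Markers of T cells summed to 15.9 and 20.3 CPM, with 0 of 12 at 10 CPM or more, and those of dendritic cells to 26.8 and 18.9 CPM, with Flt3 at 0.675 and 0.191 CPM. The highest dendritic cell marker was Ccr7, at 10.3 and 8.50 CPM. The B cell sum was 8.48 and 10.9 CPM, almost all of it from Cd79b. The mast cell and basophil sum was 1.74 and 2.29 CPM. The NK cell sum of 59.9 and 52.7 CPM came mostly from Klrk1, the activating receptor NKG2D, at 52.4 and 30.8 CPM, while Ncr1 was at 0.289 and 0.382 CPM. Stromal markers summed to 344 and 48.2 CPM, neutrophil markers to 50.1 and 136 CPM and endothelial markers, mostly Pecam1, to 66.7 and 71.9 CPM. Other C1q cells had sums of 39.1 and 62.8, 40.6 and 188, and 50.2 and 61.0 CPM. Their NK cell sum was 38.3 and 31.0 CPM and their dendritic cell sum 22.6 and 8.14 CPM, both below the members. Klrk1 and the endothelial marker Vwf were past 1.5-fold higher in members in both libraries. Monocyte markers summed to 898 and 703 CPM in members against 695 and 615 CPM. Osteoclast markers, mostly Acp5, summed to 343 and 337 CPM in members against 412 and 359 CPM. The part of other cells' RNA in the results was not estimated. In an alternative, cells with 2 or more UMIs of the T, NK, B, dendritic, mast, neutrophil, stromal and endothelial markers were removed. That left 170 and 170 members, and 10 of 78 ranked ratios fell below 1.5-fold. Monocyte and osteoclast markers were not part of that removal. Another alternative, on stromal and neutrophil genes, is given at the end. Of the 4 markers given with the label, Cxcl9, Iigp1 and Batf2 were high against other C1q cells, but Mmp13, a collagenase, was not past 1.5-fold.

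Cxcl9-high cells were an equal part of the C1q cells in both libraries. In the library titled Control they were 12.7% (11.8% to 13.6%) of 5161 C1q cells, and in the library titled Blood 12.4% (11.6% to 13.4%) of 5282, a ratio of 0.983 (0.881 to 1.097), whose interval includes equality. Of all kept cells they were 7.27% and 5.66%, a ratio of 0.778 (0.697 to 0.869). That second ratio moved with the cells below the C1q limit, which were 42.6% and 54.5% of kept cells.

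The limits removed different numbers of Cxcl9-bearing C1q cells in the libraries. Of 932 and 915 C1q cells past the Cxcl9 limits, the interferon limit removed 156 and 64, the Hmox1 limit 7 and 11, the Retnla limit 1 and 0, the limit on Ccl8 with Folr2 68 and 119, and the Cd3 limit 47 and 64. Among interferon-high C1q cells 29.2% (25.2% to 33.5%) and 25.8% (20.3% to 31.9%) passed the Cxcl9 limits. Among the 177 and 258 Hmox1-high C1q cells, whose median depth was 14245 and 6236 UMIs, 4.52% (1.97% to 8.71%) and 3.88% (1.87% to 7.01%) did. Cells with Ccl8 and Folr2, genes of tissue-resident macrophages, passed at 18.5% and 18.5%, near the 17.5% and 17.1% of C1q cells that met every other limit. Cxcl9 was thus least frequent in the Hmox1-high cells, among the sets of 100 or more.

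Cxcl9 RNA was also found outside the Cxcl9-high macrophages. The 653 and 657 members held 50.7% and 50.1% of all Cxcl9 UMIs of kept cells, the 3080 and 3186 other C1q cells that met every other limit 8.38% and 6.63%, and C1q cells removed by another limit 23.2% and 25.5%. Another 15.7% and 15.8% lay in 340 and 329 cells that passed the Cxcl9 limits but fell below the C1q limit. Those cells held the monocyte gene Plac8 at 2110 and 2040.0 CPM and Ccr7, a receptor of migrating dendritic cells, at 182 and 105 CPM, against 216 and 82.6 CPM and 10.3 and 8.50 CPM in the Cxcl9-high macrophages. The rule selected on Cxcl9, so its cells had to hold much of this RNA; the values show where the rest lay.

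The Cxcl9 share varied widely among members and showed no gap at the limit. Members held 5 to 589 Cxcl9 UMIs (median 37) in the library titled Control and 5 to 459 (median 37) in the library titled Blood. The median share of a cell's UMIs was 0.259% and 0.275%, with the highest at 2.71% and 1.73%. Of the 3733 and 3843 C1q cells that met every other limit, 1722 and 2140 had no Cxcl9 UMI. Just inside the limit, 59 and 57 members with 0.1% to 0.12% held Gbp2 at 332 and 291 CPM and Iigp1 at 240 and 148 CPM. Just outside it, 77 and 65 cells with 0.08% to under 0.1% held Gbp2 at 333 and 234 CPM and Iigp1 at 135 and 127 CPM. Edge cells on both sides were close in Gbp2 in the library titled Control, and those inside were higher in Iigp1 in both libraries and in Gbp2 in the library titled Blood. Cxcl10 was at 473 CPM inside against 430 outside in the library titled Control. In the library titled Blood it went the other way, at 439 CPM inside against 596 outside. Cells chosen by a limit on 1 gene's share are a range and not a type.

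**Figure D1:**
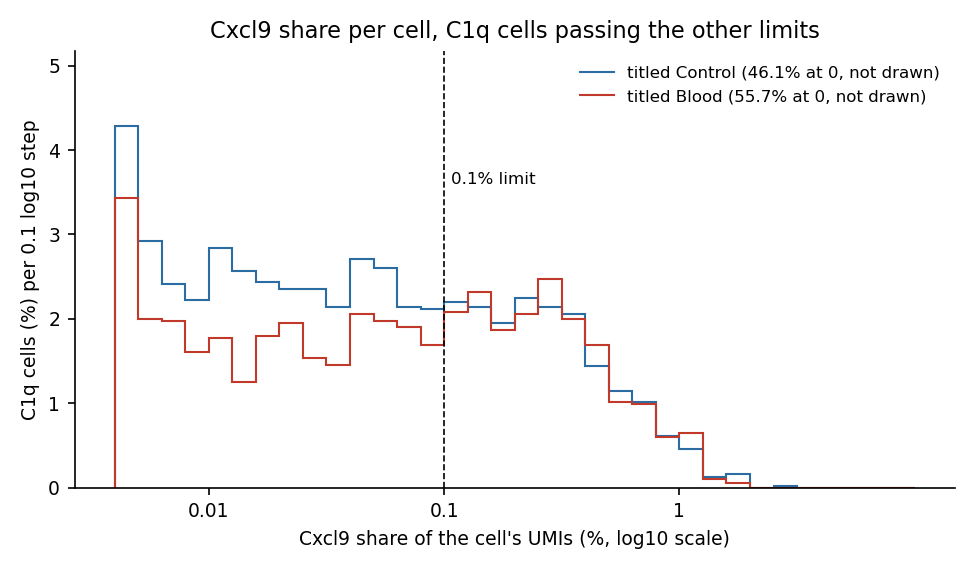
Share of each cell's UMIs that came from Cxcl9 (x axis, %, log10 scale) against the percent of C1q cells in each step of 0.1 on that scale (y axis), for C1q cells that met every other limit. The 1722 and 2140 cells at 0 are not drawn and the leftmost step also holds all smaller shares above 0; no gap lies at the 0.1% limit (dashed), and the highest shares are 2.71% in the library titled Control and 1.73% in the library titled Blood.

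Free RNA gives a floor for these values. In cells of the T cell gate, which should lack Cxcl9, 23 of 404 (5.69%, median 4855.5 UMIs) and 30 of 646 (4.64%, median 4578.5 UMIs) had a Cxcl9 UMI, against 44.1% and 32.8% of other C1q cells at a median of 14965 and 13499 UMIs. After thinning each cell to 2000 UMIs, which left out 2 and 6 members, 155 and 253 other C1q cells and 23 and 37 T cell gate cells, the shares were 97.8% and 98.2% in members, 17.2% and 13.5% in other C1q cells and 2.10% and 2.79% in the T cell gate. The gate took only cells without C1q UMIs, which also leaves out T cells carrying macrophage RNA, so it is a low floor. Cells of the neutrophil gate had a Cxcl9 UMI in 0 of 35 cells, which allows a share of up to 8.57%, and in 39 of 673 (5.79%, median 1795 UMIs), or 5.49% of the 237 left after thinning in the library titled Blood.

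Cxcl9-high cells carried more RNA of interferon gamma target genes than other C1q cells, and the same genes stood out in both libraries. Of 7667 compared genes, 108 (1.41%) were at least 1.5-fold higher and 26 (0.339%) at least 1.5-fold lower in both libraries, on log2(CPM + 5). The log2 ratios of the libraries had a Pearson r of 0.81 and a Spearman rho of 0.63 across genes, which are not independent, and 5900 genes had the same sign. Genes of the rule, Cxcl9 among them, were not left out of these counts and correlations. The same rule chose the cells in both libraries, so part of the likeness between them was set in advance. Of the 143 genes past that size in the library titled Control 75.5% were shared, as were 85.0% of the 127 in the library titled Blood. The median over all genes was -0.07 and -0.05.

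**Figure D2:**
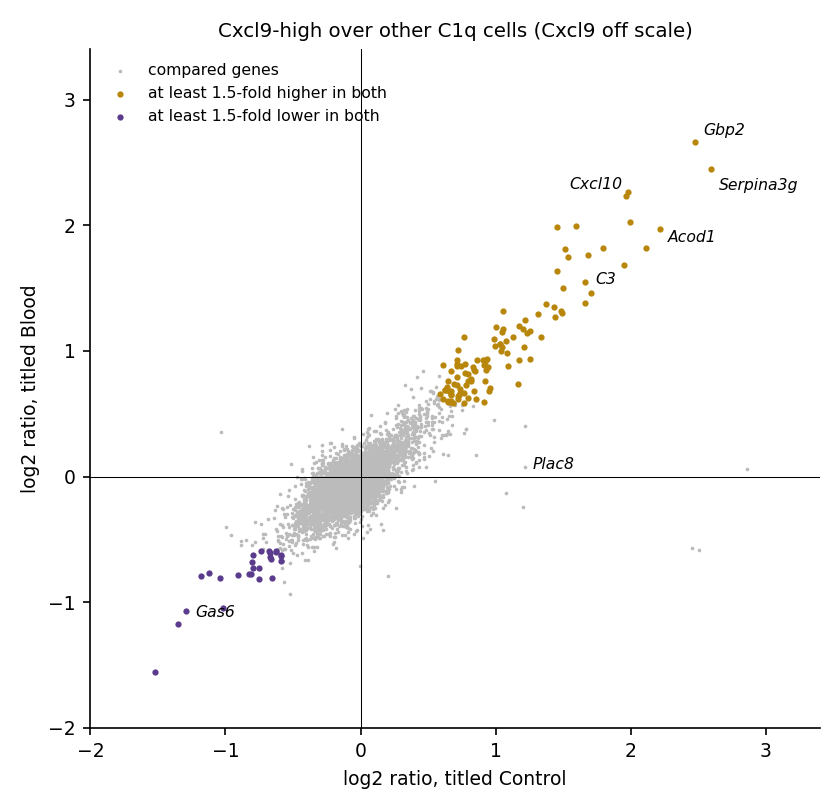
Log2 ratio of Cxcl9-high over other C1q cells, on CPM plus 5, in the library titled Control (x axis) and the library titled Blood (y axis), 1 point per compared gene; Cxcl9 lies off the scale. The 108 genes at least 1.5-fold higher in both (gold) reach from Gbp2 and Serpina3g downwards along the diagonal, the 26 lower in both (purple) include Gas6, and Plac8 lies on the axis of the library titled Control.

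Among chemokines, Cxcl10, the second CXCR3 ligand, went with Cxcl9. Its level was 932 CPM (913 to 951) in Cxcl9-high cells against 235 in other C1q cells of the library titled Control, and 969 CPM (950.3 to 988) against 202 in the library titled Blood. The ratios were 3.97 (3.86 to 4.08) and 4.80 (4.66 to 4.93). Ccl5, a T cell chemokine, was at 285 against 101.1 CPM and at 234 against 55.5 CPM. Of 15 measured chemokines besides Cxcl9 these 2 were higher in both libraries and 4 were lower, with a median log2 ratio of -0.38 and -0.22. The lower ones were the monocyte chemokines Ccl2 (378 against 587 and 360.1 against 550 CPM) and Ccl7 (212 against 377 and 206 against 356 CPM), the neutrophil chemokine Cxcl3, and Pf4 (918 against 1632 and 1573 against 2702 CPM). Cxcl16, a ligand of CXCR6, was at 807 against 646 and 817 against 693 CPM, within 1.5-fold.

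Guanylate-binding proteins, GTPases that attack the membranes of intracellular microbes, were among the groups highest in these cells. Gbp2 stood at 554 CPM (540 to 569) against 95.3 in the library titled Control and at 549 CPM (535 to 563) against 82.7 in the library titled Blood, ratios of 5.82 (5.59 to 6.05) and 6.63 (6.37 to 6.91). Of 7 measured GBPs 6 were higher in both libraries and 0 lower, with a median log2 ratio of 1.002 and 1.19. Gbp5, which also promotes inflammasome assembly, was at 82.9 against 17.1 and 74.97 against 14.6 CPM, and Gbp4 at 130 against 37.2 and 121 against 32.2 CPM. Gbp2 UMIs were found in 89.1% and 85.1% of members, 45.9% and 37.9% of other C1q cells and 31.2% and 26.3% of T cell gate cells. Thinned to 2000 UMIs, the shares were 52.2% and 50.5%, 14.5% and 13.6%, and 18.6% and 15.3%. T cells are known to express Gbp2 themselves, so that gate sets no floor for it. Cells of the neutrophil gate held Gbp2 at 1197 and 648 CPM, above the members.

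Since the genes highest in these cells moved together, their promoters are shown from RefSeq (GRCm38.p6), as the 250 bases before the start site, written 5' to 3' on the gene's strand. Capitals mark 2 motifs, TTCNNNGAA, known from promoters of interferon gamma target genes, and a longer one, those of the interferon response element, which is GAAA, any 2 bases and GAAA again, searched on both strands. Cxcl9 is at chr5:92328080-92328329, minus strand, Cxcl10 at chr5:92348890-92349139, minus strand, Gbp2 at chr3:142620413-142620662, plus strand, and Gbp5 at chr3:142496684-142496933, plus strand.
Cxcl9: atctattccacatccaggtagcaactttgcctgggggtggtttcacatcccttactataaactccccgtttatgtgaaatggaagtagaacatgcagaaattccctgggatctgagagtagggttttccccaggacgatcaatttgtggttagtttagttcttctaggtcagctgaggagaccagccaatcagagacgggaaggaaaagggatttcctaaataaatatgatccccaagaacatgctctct
Cxcl10: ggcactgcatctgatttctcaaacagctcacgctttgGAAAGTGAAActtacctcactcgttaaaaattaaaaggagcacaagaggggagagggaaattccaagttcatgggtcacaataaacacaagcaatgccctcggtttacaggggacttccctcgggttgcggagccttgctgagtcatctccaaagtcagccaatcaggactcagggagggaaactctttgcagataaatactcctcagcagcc
Gbp2: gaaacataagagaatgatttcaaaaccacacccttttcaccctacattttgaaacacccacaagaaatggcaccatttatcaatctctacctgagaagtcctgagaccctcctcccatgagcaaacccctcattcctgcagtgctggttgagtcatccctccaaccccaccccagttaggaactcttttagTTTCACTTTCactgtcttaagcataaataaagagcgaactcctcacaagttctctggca
Gbp5: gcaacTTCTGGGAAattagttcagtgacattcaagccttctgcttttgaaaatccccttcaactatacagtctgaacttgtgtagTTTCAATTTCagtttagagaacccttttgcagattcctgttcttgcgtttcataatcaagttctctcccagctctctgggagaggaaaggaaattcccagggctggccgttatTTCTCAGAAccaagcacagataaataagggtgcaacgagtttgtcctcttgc
The window searched also took in the 50 bases after the start. Gbp5 held TTCNNNGAA at both 245 and 52 bases before the start and the longer motif at 165, Gbp2 held the longer motif at 59 and Cxcl10 at 213, and the Cxcl9 window held neither. Of the 15 highest genes 9 had an entry in the table, and 4 of those held either motif: Cxcl10, Gbp2, Gbp5 and Serpina3g. Of the 12 lowest genes 9 had an entry and 2 held either. Among all 27025 genes with an entry 12.9% held either, and of 32851 promoters 8.30% held TTCNNNGAA and 3.44% the longer motif. A match of letters is no evidence of binding.

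Immunity-related GTPases, relatives of the GBPs that guard against vacuolar pathogens, showed the same pattern. Iigp1 was at 232 CPM (223 to 241) against 54.9 in the library titled Control and 216 CPM (207 to 225) against 41.1 in the library titled Blood, ratios of 4.22 (3.997 to 4.46) and 5.26 (4.94 to 5.59). Of 8 measured members 6 were higher in both and 0 lower, with a median of 1.06 and 0.99. Igtp was at 105 against 42.3 and 87.6 against 34.0 CPM and Irgm1 at 119 against 55.8 and 97.5 against 44.2 CPM. Iigp1 was found in 52.4% and 44.6% of members, so many Cxcl9-high cells had no Iigp1 UMI at this depth.

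The signalling genes of interferon gamma split into receptors and induced regulators. The receptor chains Ifngr1 (176 against 216 and 162 against 201 CPM) and Ifngr2 (135 against 131 and 125 against 133 CPM) were within 1.5-fold. Of 18 measured members 6 were higher in both and 0 lower, among them Irf1, Batf2, Socs1, Ciita and Nlrc5, with a list median of 0.44 and 0.17. Irf1, a transcription factor that induces many such genes, was at 161 against 82.3 and 155 against 79.1 CPM. T cell gate cells held Irf1 at 216 and 266 CPM and neutrophil gate cells at 682 and 490 CPM, above the members. Batf2, a transcription factor induced in activated macrophages, was at 60.4 against 17.6 and 62.4 against 15.04 CPM. Socs1, the feedback inhibitor of the pathway, was at 65.9 against 21.3 and 69.0 against 24.1 CPM.

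Most measured class II and some class I antigen presentation genes were higher. Of 9 measured genes of MHC class II presentation 6 were higher in both libraries and 0 lower, with a median of 0.63 and 0.79. H2-Ab1, a class II chain, was at 5974 against 3567 and 4699 against 2553 CPM, and Ciita, the master regulator of class II genes, at 122 against 56.2 and 105 against 43.8 CPM. Of 20 class I presentation genes 7 were higher and 0 lower, with a median of 0.56 and 0.53. They included the peptide transporter Tap1 (261 against 148 and 227 against 132 CPM) and the class I regulator Nlrc5 (37.5 against 21.8 and 32.8 against 20.1 CPM). The classical chain H2-K1 was at 2296 against 1826 and 1998 against 1664 CPM, within 1.5-fold; class I genes are near-identical in sequence and their single values are uncertain.

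Genes for 2 ligands of PD-1 and for 1 costimulatory receptor were higher. Cd274, which encodes PD-L1, the ligand of the inhibitory receptor PD-1, was at 132 against 55.9 and 125 against 63.3 CPM. Cells of the neutrophil gate held Cd274 at 849 and 1026 CPM, above the members. Pdcd1lg2, which encodes PD-L2, was at 42.6 against 16.2 and 42.02 against 23.2 CPM, and Cd40, the receptor for T cell help, at 76.1 against 26.3 and 74.8 against 25.7 CPM. These were the 3 of 12 measured checkpoint and costimulatory genes past 1.5-fold in both libraries, with 0 lower and a median of -0.03 and 0.10. The costimulators Cd80 (18.5 against 24.5 and 19.7 against 21.8 CPM) and Cd86 (172 against 140 and 144 against 118 CPM) were not past that size. Among 15 cytokine genes 4 were higher and 0 lower, with a median of 0.21 and 0.11. They were Il1rn, the interleukin 1 antagonist (193 against 124 and 234 against 144 CPM), Il18bp, a decoy for interleukin 18 (88.5 against 35.3 and 54.6 against 24.3 CPM), Il27 (14.6 against 6.07 and 11.7 against 4.85 CPM) and Tnfsf13b, the B cell factor BAFF (20.6 against 10.00 and 23.1 against 10.1 CPM). Il12b, a subunit of interleukin 12, was found in only 2 and 3 of the cells.

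Inducible enzymes of activated macrophages were part of the pattern. Acod1, which makes itaconate, was at 90.0 CPM (84.3 to 95.9) against 15.5 and 96.2 CPM (90.3 to 102) against 20.9, ratios of 5.82 (5.28 to 6.41) and 4.60 (4.21 to 5.03). Nos2, the inducible nitric oxide synthase, was at 23.8 against 5.26 and 22.1 against 5.97 CPM and was found in 11.49% and 12.8% of members, against 3.21% and 4.14% of other C1q cells and 0.495% and 0.774% of T cell gate cells. Cells of the neutrophil gate held Acod1 at 2379 and 1634 CPM, above the members. They held Nos2 at 0 CPM (35 cells) in the library titled Control and at 85.2 CPM (673 cells), above the members, in the library titled Blood. Ass1, which remakes arginine, was at 176 against 70.7 and 194 against 84.2 CPM, and Sod2 at 255 against 108 and 252 against 108 CPM. With Ptgs2, these were 5 of 14 measured antimicrobial and arginine genes, with 0 lower and a median of 0.29 and 0.16. Arg1, which breaks arginine down, was at 810 against 1089 and 1389 against 1973 CPM, lower in both but within 1.5-fold.

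The rest of the 15 highest genes had mixed roles. Serpina3g, a protease inhibitor, was at 167 against 23.6 and 123 against 18.6 CPM, with ratios of 7.10 (6.59 to 7.65) and 6.63 (6.08 to 7.24); its family is close in sequence. C3, the central complement component, was at 302 against 92.3 and 325 against 108 CPM, and with Cfb was 1 of 2 of 7 measured complement genes past 1.5-fold, with a median of 0.03 and 0.03. Upp1, uridine phosphorylase, was at 98.1 against 18.8 and 114 against 28.9 CPM. Fam26f, a membrane protein of activated immune cells, was at 125 against 32.5 and 87.8 against 21.3 CPM. Ly6a, which encodes Sca-1, was at 1137 against 373 and 780.0 against 192 CPM, and its relative Ly6i at 85.1 against 18.3 and 51.9 against 12.7 CPM. AW112010 was at 1959 against 682 and 1839 against 521 CPM. Fcgr4, an activating Fc receptor, was at 448 against 214 and 350 against 154 CPM; with Clec4e it was 1 of 2 higher genes among 18 phagocytic and Fc receptors and related genes, of which Mrc1 and Gas6 were lower and the median was -0.16 and -0.15.

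**Figure D3:**
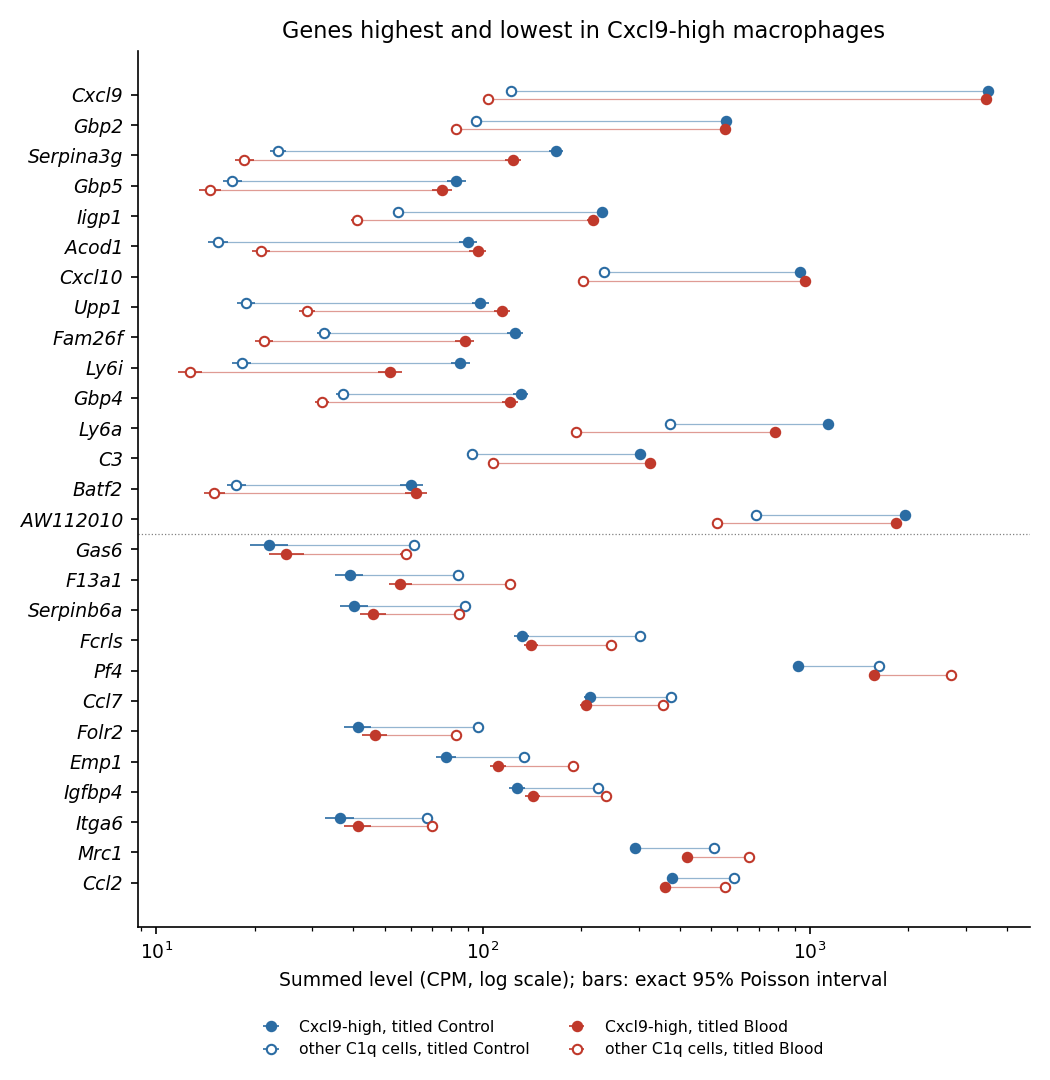
Summed level in CPM (x axis, log scale) of the 15 highest and 12 lowest genes in Cxcl9-high cells (filled) and other C1q cells (open), with exact 95% Poisson intervals, in the library titled Control (blue) and the library titled Blood (red). Gbp2 runs from 95.3 to 554 CPM and from 82.7 to 549 CPM, while Gas6 runs the other way, from 61.7 to 22.2 and from 58.0 to 25.02 CPM.

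Some genes of resident and alternatively activated macrophages were lower in Cxcl9-high cells. Of 16 measured members of that list 0 were higher in both libraries and 4 were lower, with a median of -0.38 and -0.47. Gas6, the bridge between dying cells and the receptors Axl and Mertk, was at 22.2 CPM (19.4 to 25.2) against 61.7 and 25.02 CPM (22.1 to 28.2) against 58.0, ratios of 0.360 (0.313 to 0.411) and 0.432 (0.379 to 0.490). Mrc1, the mannose receptor, was at 291 against 511 and 421 against 654 CPM, and F13a1, a coagulation factor chain, at 39.0 against 84.0 and 55.9 against 121 CPM. Cbr2 was at 13.7 against 42.7 and 11.3 against 31.8 CPM. Folr2, the folate receptor of resident macrophages, was at 41.4 against 96.2 and 46.6 against 82.9 CPM; the rule limits it only together with Ccl8. Maf, a transcription factor of resident macrophages, was at 265 against 425 and 284 against 430 CPM.

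Other genes among the 12 lowest were Fcrls, a scavenger receptor-like gene (131 against 303 and 140 against 246 CPM), Serpinb6a (40.3 against 88.2 and 46.1 against 84.5 CPM), Emp1 (76.8 against 133 and 111 against 188 CPM), Igfbp4 (127 against 225 and 142 against 238 CPM) and Itga6 (36.4 against 67.3 and 41.4 against 69.6 CPM). Other functional groups had few or no genes past 1.5-fold. Lipid-associated genes had 0 of 18 past 1.5-fold in both libraries and a median of -0.24 and -0.22, with Trem2 at 295 against 394 and 339 against 427 CPM. Haem and iron genes had 0 of 13, with a median of -0.23 and -0.04; matrix degradation genes 0 of 11 (-0.04 and -0.11), Toll-like and cytosolic sensors 0 of 17 (0.04 and 0.07), and immediate early and heat shock genes 0 of 20 (0.01 and -0.15). Hypoxia and glycolysis genes had 1 of 22, the glycolytic Pfkp, with a median of 0.18 and 0.11. Cell cycle genes had 0 of 24, with a median of -0.39 and -0.29 and Mki67 at 120.0 against 156 and 108 against 141 CPM.

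Interferon-stimulated genes outside the rule were a weaker part of the pattern than the GBPs. Of 31 measured members 6 were higher in both libraries and 0 lower, with a median of 0.44 and 0.45: Zbp1, Ifi205, Ifi211, Phf11b, Herc6 and Ly6a. Zbp1, a sensor of nucleic acids, was at 163 against 79.6 and 112 against 49.7 CPM. Irf7, the amplifier of type I interferon, was at 241 against 176 and 118 against 85.2 CPM, within 1.5-fold. The rule caps 5 genes of this response, which bears on how high the rest can stand.

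The 483 and 233 interferon-high C1q cells that the rule keeps out are set beside the Cxcl9-high cells as a description. Cxcl9, on which only the latter were chosen, was at 3503 and 3454 CPM in the Cxcl9-high cells and 989 and 1332 in the interferon-high cells. Cxcl10 was at 932 and 969 CPM against 2982 and 2845 CPM, ratios of 0.312 (0.305 to 0.320) and 0.341 (0.330 to 0.351). Gbp2 was at 554 and 549 against 423 and 408 CPM, whereas Iigp1 was at 232 and 216 against 352 and 421 CPM. C3 was at 302 and 325 against 131 and 240 CPM, ratios of 2.30 (2.13 to 2.49) and 1.36 (1.24 to 1.48), and the class II chain H2-Aa at 5224 and 4034 against 3191 and 3029 CPM. Irf7 was at 241 and 118 against 834 and 571 CPM. Both sets were cut on genes of these pathways and the interferon-high cells had a median of 10221 and 9306 UMIs.

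Within the Cxcl9-high cells, levels of some of the same genes followed the Cxcl9 share. The classes were cut on Cxcl9, and the genes shown were chosen after values were seen, so this too is a description and no test. Members were divided at 0.2% and 0.5% into 229, 292 and 132 cells in the library titled Control and 220, 307 and 130 in the library titled Blood. Gbp2 was at 368, 528 and 985 CPM in the former and 313, 518 and 1063 in the latter. Cxcl10 was at 549, 899 and 1764 CPM and at 635, 933 and 1681 CPM. Acod1 was at 43.4, 74.99 and 218 CPM and at 56.6, 87.0 and 192 CPM. The order was the same in both libraries for these 3 genes, and for Serpina3g, at 98.1, 152 and 341 and 60.2, 112 and 270.3 CPM.

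Other genes followed less evenly or went the other way. Iigp1 was at 168, 225 and 374 CPM in the library titled Control but at 165, 165 and 436 CPM in the library titled Blood, where only the highest class stood apart. Cd274 was at 107, 127 and 196 and 91.1, 125 and 190 CPM. Irf7 was at 231, 242 and 259 and 108, 116 and 143 CPM; the intervals of its lowest and highest classes overlapped in the library titled Control (216 to 246 and 237 to 283) but not in the library titled Blood (97.5 to 119 and 127 to 161). Isg15, which the rule caps, was at 196, 197 and 290.1 and 98.1, 108 and 216 CPM. Mmp13 was at 123, 102 and 122 and 160, 167 and 190 CPM. The proliferation marker Mki67 was at 152, 123 and 50.4 and 139, 101.1 and 64.8 CPM, and Mrc1 at 371, 263 and 202 and 465, 441 and 291 CPM. Across members, the summed share of the GBP list had a Spearman rho with the Cxcl9 share of 0.36 (653 cells) and 0.42 (657 cells), the highest of the functional lists, and that of the alternative activation list -0.15 and -0.25; both shares come from the same cell's UMIs and share its depth.

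**Figure D4:**
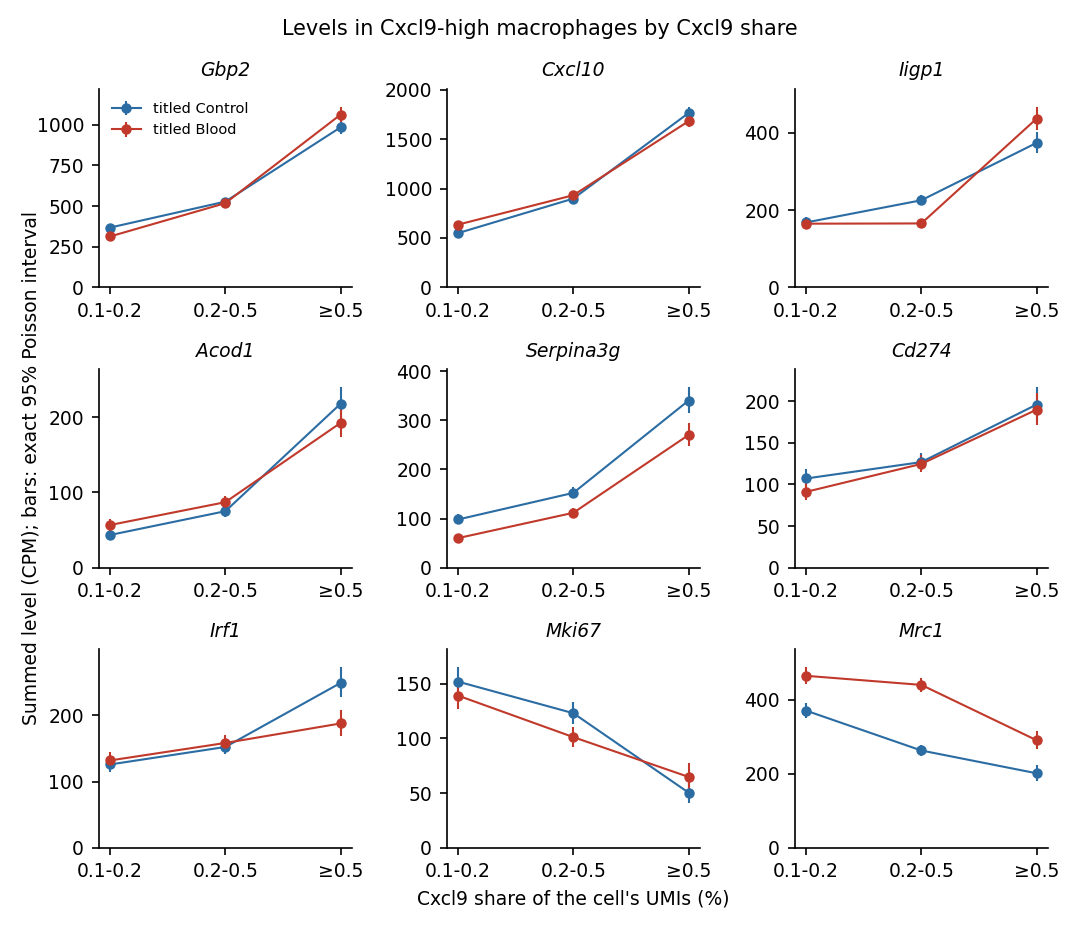
Summed level in CPM (y axes, from 0) of 9 genes in Cxcl9-high cells grouped by Cxcl9 share (x axes, %), with exact 95% Poisson intervals, in the library titled Control (blue) and the library titled Blood (red). Gbp2, Cxcl10, Acod1 and Serpina3g climb with the Cxcl9 share in both libraries, and Mki67 and Mrc1 descend.

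Between the libraries, the genes highest in these cells ranged from like levels to lower in the library titled Blood, while many interferon-stimulated genes were lower in the one titled Blood. Of 7740 compared genes, 37 (0.478%) were at least 1.5-fold higher and 66 (0.853%) at least 1.5-fold lower in the library titled Blood. Gbp2 had a log2 ratio of -0.01, Cxcl10 0.06, Iigp1 -0.10, Acod1 0.09 and Cd274 -0.08. Serpina3g had -0.42, Fam26f -0.49, Ly6a -0.54 and Ly6i -0.66, of which Ly6i alone was past 1.5-fold. Cxcl9 itself (-0.02) is bounded below by the rule. Of 33 interferon-stimulated genes outside the rule 0 were higher and 14 lower, with a median of -0.50, against 0.02 over all genes. With cells bearing other cell types' markers removed 9 of 32 were lower. In that setting, which left 170 and 170 members, 185 of all 7839 compared genes were lower, against 66 of 7740 in the main comparison. In the other C1q cells the list's median was also -0.50.

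Irf7 stood in these cells at 241 (231 to 250.5) in the library titled Control and 118 (112 to 125) in the library titled Blood, in CPM, a ratio of 0.491 (0.459 to 0.526), with a log2 ratio of -0.995 here and -1.005 in other C1q cells. With cells of 2 or more UMIs of other cell types' markers removed, which left 170 and 170 members, it was -0.45 and no longer past 1.5-fold. The interferon-inducible Ifi27l2a had 839 CPM in the former and 428 in the latter, and Ms4a4c had 296 and 159. The interferon gamma signalling list, in contrast, had 0 of 18 genes past 1.5-fold in either direction and a median of -0.12. MHC class II genes had 0 of 9, with a median of -0.34, and H2-Ab1 at 5974 and 4699 CPM. Among GBPs 1 of 8 was past 1.5-fold: Gbp2b, with 49.5 CPM (45.3 to 53.9) in the library titled Control against 6.30 (4.88 to 8.02), found in 20.5% and 5.94% of members, with 8.09 and 1.08 CPM in other C1q cells; GBPs are close in sequence, and how reads were split between copies is not known.

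The monocyte genes Plac8 and Ly6c2 were lower in the library titled Blood. Plac8 stood at 216 (207 to 225) in the library titled Control and 82.6 (77.2 to 88.3) in the library titled Blood, in CPM, with a log2 ratio of -1.33, against 90.0 and 78.1 CPM and -0.19 in other C1q cells. Plac8 thus stood above the other C1q cells in the library titled Control (log2 ratio 1.21) and at their level in the library titled Blood (0.08). Ly6c2, known from inflammatory monocytes, had 66.3 and 18.1 CPM, a log2 ratio of -1.63, against -1.04 in other C1q cells. The monocyte marker Ccr2, in contrast, was at 356 and 348 CPM. The whole list of 10 monocyte markers summed to 898 and 703 CPM in these cells and 695 and 615 CPM in other C1q cells, and the part of monocyte RNA in these values was not tested. Klf2, a transcription factor of quiescent cells, was at 504 and 254 CPM. Tmem176b and Tmem176a, paired membrane proteins, were at 102 and 27.3 and at 59.1 and 15.1 CPM, with log2 ratios of -1.73 and -1.67, near those of other C1q cells (-1.60 and -1.42); in the 170 and 170 members without other cell types' markers they were -1.13 and -0.75, and that of Plac8 was -0.87.

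Several genes of matrix degradation and arginine use were higher in the library titled Blood. Mmp12, the macrophage elastase, stood at 155 (148 to 163) in the library titled Control against 368 (357 to 380.3), in CPM, a ratio of 2.37 (2.24 to 2.51), found in 29.7% and 49.5% of members. Of 11 matrix degradation genes 3 were higher, Mmp9, Mmp12 and Adam8, and 0 lower, with a median of 0.35. Mmp13 was at 113 and 169 CPM, a log2 ratio of 0.56. Arg1 in these cells had 810 CPM (793 to 828) in the one and 1389 (1366 to 1411) in the other, and Slc7a2, which imports arginine, at 49.9 and 82.9 CPM. Pf4 was at 918 and 1573 CPM and the fatty acid binding protein Fabp5 at 397 and 682 CPM. Other C1q cells had log2 ratios of the same sign, 1.14 for Mmp12, 0.85 for Arg1, 1.004 for Slc7a2, 0.73 for Pf4 and 0.65 for Fabp5.

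The remaining genes by rank were Pdpn, which encodes podoplanin (33.6 and 62.0 CPM), Adam8 (148 and 254 CPM), AA467197 (729 and 1233 CPM), Scd2, a fatty acid desaturase (46.6 and 80.7 CPM), Ch25h, cholesterol 25-hydroxylase (40.1 and 68.2 CPM), and the lectin receptor Clec4d (62.3 and 100.9 CPM). Of these, Scd2 (0.49) and Clec4d (0.39) were no longer past 1.5-fold with marker-bearing cells removed, nor was Arg1 (0.57), and Ch25h was not (0.48) when Cd3 was the only exclusion. Cxcl3 was at 8.39 and 48.4 CPM, a log2 ratio of 1.996, against 1.94 in other C1q cells. Cell cycle genes had 1 of 24 lower and 0 higher, hypoxia and glycolysis genes 2 of 22 higher (Bnip3 and Ero1l), haem and iron genes 0 of 13 in either direction with a median of 0.09, and checkpoint and costimulatory genes 0 of 13 with a median of -0.02.

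Collagen and calgranulin genes led both ends of this comparison, and most of their UMIs came from few cells. Col1a1, a collagen chain, was at 90.1 and 6.88 CPM, Col1a2 at 88.3 and 12.9, Col3a1 at 59.6 and 6.59 and the matrix protein Sparc at 82.5 and 9.26 CPM. In the library titled Control 2 cells held 92.8% of the 3325 UMIs of these 4 genes, and in the library titled Blood 1 cell held 65.4% of 373. S100a9, a neutrophil calgranulin, was at 9.54 and 59.4 CPM, a log2 ratio of 2.15, with 93.9% and 63.3% of its UMIs in 5 cells. With cells of at least 10 stromal or calgranulin UMIs removed, an alternative chosen after seeing the data, Col1a1 was at 3.999 and 3.02 CPM and S100a9 at 0.975 and 12.4 CPM, with log2 ratios of -0.17 and 1.54. The S100a9 difference was thus not confined to those cells, and other C1q cells then held S100a9 at 1.29 and 13.8 CPM. The neutrophil gate held 35 cells in the library titled Control and 673 in the library titled Blood. Without barcodes found in both libraries Col1a1 had -0.31 and Col3a1 -0.09. Removing the cells of at least 10 stromal or calgranulin UMIs left 35 genes higher and 51 lower in the library titled Blood. Under that removal Plac8 (-1.36), Mmp12 (1.19) and Arg1 (0.76) had nearly the same log2 ratios as before.

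**Figure D5:**
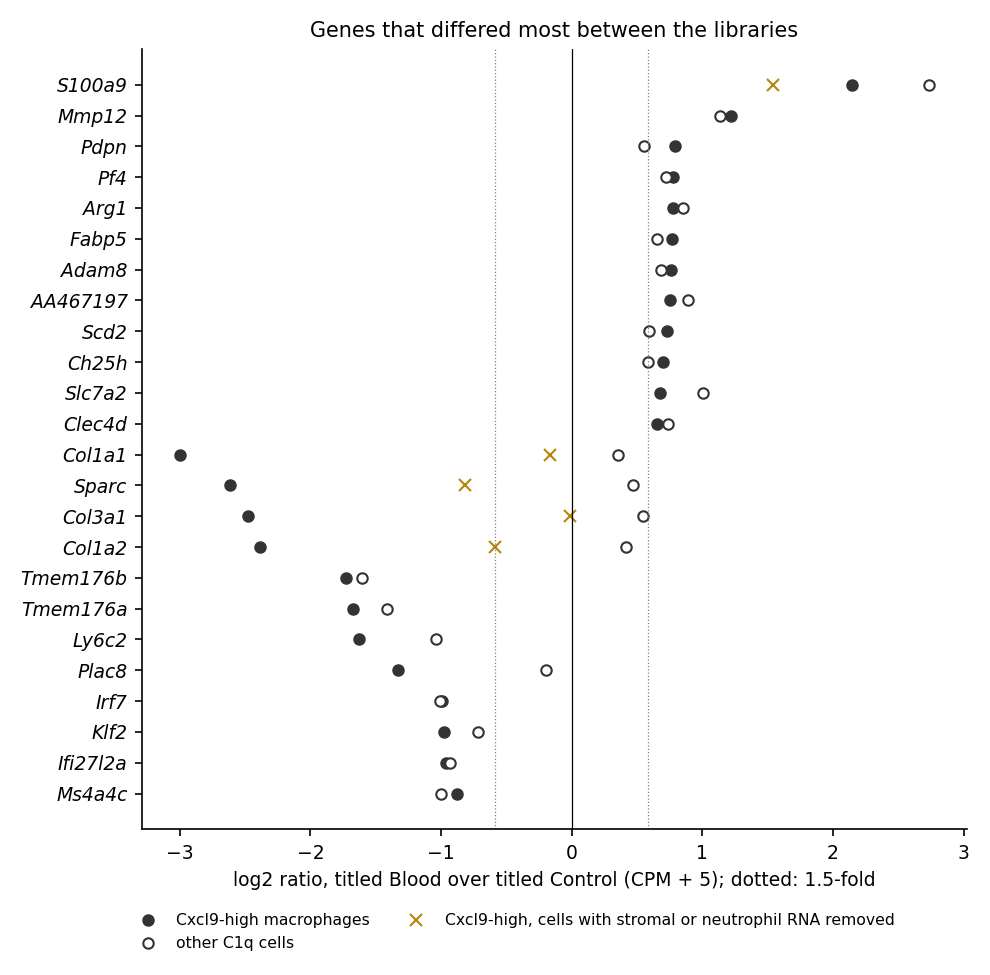
Log2 ratio of the library titled Blood over the library titled Control (x axis, CPM plus 5) for the 12 highest and 12 lowest genes of Cxcl9-high cells (filled) and the same genes in other C1q cells (open); dotted lines mark 1.5-fold and crosses the values with cells of stromal or neutrophil RNA removed. Most genes lie close in both cell sets, Plac8 lies at -1.33 and -0.19, and Col1a1 moves from -3.00 to -0.17 at its cross.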

How the data were processed

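The deposited values are raw UMI counts, 1 table of genes by cell barcodes for each tumour library. The authors used Cell Ranger 3.1.0 and the mm10 genome, as the submitters' processing notes list them; the annotation release and the barcode-calling setting were not stated. Per the labels' protocols, tissue was cut up, digested enzymatically at 37 °C (45 minutes) and cleared of red cells by lysis. The library titled Control held 115272096 UMIs in 9475 barcodes and the library titled Blood 115066023 in 12057.

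Counts were summed over cells of a set and scaled to CPM with exact 95% Poisson intervals. Ratios have exact conditional binomial intervals and shares Clopper-Pearson intervals. Log2 ratios use a pseudocount of 5 CPM, so changes of low genes are understated. Genes with at least 10 CPM in a compared set (in each library, for members against other C1q cells) and at least 10 counts in all were compared, and 1.5-fold is the size used for counts. "Other C1q cells" met every part of the rule but the Cxcl9 part. Scrublet (scanpy 1.11.5) marked doublets in each library, which were kept. The T cell gate took cells with at least 2 Cd3 UMIs and no C1q. The 1.5-fold cut and the ratio intervals were tried on simulated pooled counts that held counting error only. The summing over cells was not part of that trial.

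Members and gene lists were chosen with earlier results of these data known. Named genes were the 15 highest and 12 lowest ratios against other C1q cells and the 12 highest and 12 lowest between libraries, at 50 CPM and 100 counts or more, without genes of mitochondria, ribosomes, globins, sex chromosome dosage (Xist, Y-linked) or antigen receptors and without predicted genes; the rule's genes, the given markers and up to 6 members per list, or those past 1.5-fold, were added. Cbr2, Maf, Trem2, Cd80, Ncr1, Flt3, Ccr7 and the genes shown by Cxcl9 share were chosen after values were seen. Genes with no row under the listed symbol were not analysed here. The values of 1 gene are not reported here. GENCODE M21 gave coordinates.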

Additional observations from a re-analysis of the deposited data

How the results depend on the processing

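Of the 72 recomputed share ratios and counts of genes, 63 stayed within the ratio's interval or within 1.5 times the count. Of the recomputed log2 ratios of ranked genes 889 stayed within the main value's interval, 277 moved outside it and 4 reversed; 66 of the list medians moved and 834 did not. All 78 main ratios were past 1.5-fold, and 15 fell below it under some alternative, 10 of them with cells of other markers removed; outside the collagens and Sparc these were Arg1, Ccl2, Ch25h, Clec4d, Emp1, Folr2, Igfbp4, Irf7, Itga6 and Scd2. With all kept cells as denominator the share ratio was 0.778. The count of genes lower than in other C1q cells, 26, was 56 at Cxcl9 limits of 0.2% and 10 UMIs, 41 with cells of 2 or more UMIs of other cell type markers removed, 58 with the mean of each cell's CPM and 48 with a pseudocount of 1. The count higher in the library titled Blood, 37, was 87 in cells thinned to 5000 UMIs, 64 with a pseudocount of 1 and 197 with cells of other markers removed, where that lower in it was 185 in place of 66; that setting left 170 and 170 members. The log2 ratio of Col3a1 between libraries turned from -2.48 to 0.00602 at the stricter Cxcl9 limits, 0.0384 at C1q of at least 0.5% and 0.64 with cells of other markers removed, where that of Col1a1 was 0.00666; each leaves out cells, and 2 cells held most collagen UMIs. Without barcodes found in both libraries 105 and 25 genes were higher and lower than in other C1q cells, and 37 and 52 between libraries. Over all alternatives Gbp2 ran from 2.33 to 2.70 and 2.54 to 2.72 and Cxcl10 from 1.45 to 2.15 and 1.97 to 2.30 against other C1q cells. No paired analysis was possible because each group has 1 library. Genes near 10 CPM rest on about 100 UMIs in each set of members, which limits their precision.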
